A study of Mus musculus with 7 samples.

Results

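The 50 genes described here copy DNA in S phase or repair it by homologous recombination. They were taken from a list of names that was chosen with earlier results of these data known. The names were matched through Ensembl identifiers in a raw count table of 53465 identifiers. All 50 were found, and all 50 were among the 14784 genes with enough counts to be tested. The libraries were RNA-seq libraries of CD4+CD25+ cells, the gate used for regulatory T cells (Treg), sorted from mouse liver. KO_MCD denotes 3 libraries from CD73 knockout mice fed a methionine/choline-deficient diet (MCD), a diet used to produce fatty liver disease. WT_MCD denotes 2 libraries from wild type C57BL/6 mice on the same deficient diet, and WT_NCD denotes 2 libraries from wild type C57BL/6 mice on a normal control diet (NCD). All mice were fed for 4 weeks, and neither their age nor the deleted part of the CD73 gene is given in the sources used here. Separate animals are not stated for the libraries of a group, so the p-values rest on the spread among these libraries alone, and that spread may be technical.

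Replication starts at origins, where the origin recognition complex, Cdc6 and Cdt1 load the MCM2-7 ring. Cdc45 and the GINS complex turn the ring into an active helicase, and polymerases, the sliding clamp, its loader and a ligase build the new strands. Broken or stalled forks are mended by homologous recombination, which uses the sister copy as the template and depends on Brca1 and Brca2. Most of these genes are switched on at the G1/S boundary by E2F factors, and T cells transcribe them when they divide.

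The E2F letters are shown here because promoter letters were not used to choose the genes. The genes were chosen for their part in S phase and repair, which goes with control by E2F factors. The promoter counts are therefore not independent of that choice. RefSeq promoters on GRCm38.p6, each of 300 bases around a gene's start, were matched by symbol for 42 of the 50 genes, which gave 49 promoters. The letters searched were TTTCCCGC, TTTCGCGC, TTTGCCGC and TTTGGCGC on both strands, with overlapping matches allowed. They were present in 15 of the 49 promoters (30.6%), against 744 of 32851 promoters of all genes (2.26%). They were found in 5 of 9 helicase promoters and 3 of 4 origin licensing promoters, but in 1 of 8 recombination promoters and in 0 of 5 nucleotide supply promoters. The letters CCAAT, searched on both strands, were in 57.1% of the 49 promoters and in 37.4% of all promoters. Of 17 promoters of mitosis genes, 2 (11.8%) held the E2F letters and 15 (88.2%) held CCAAT. A match is a description of the letters, not a site of binding. The next lines give 5 of these promoters 5′ to 3′ on the gene's strand, with the E2F letters in capitals. They cover origin licensing, the helicase and the polymerases, and the Eme1 promoter, which held no match, follows because Eme1 was not counted in the knockout.
Cdc6, chr11:98907901-98908200, plus strand: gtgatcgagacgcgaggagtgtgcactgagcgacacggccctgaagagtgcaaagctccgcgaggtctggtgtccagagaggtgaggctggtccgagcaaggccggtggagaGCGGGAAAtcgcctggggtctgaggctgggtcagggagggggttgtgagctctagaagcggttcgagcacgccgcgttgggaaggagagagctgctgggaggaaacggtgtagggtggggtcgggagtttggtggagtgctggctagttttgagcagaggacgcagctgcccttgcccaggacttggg
Mcm5, chr8:75109259-75109558, plus strand: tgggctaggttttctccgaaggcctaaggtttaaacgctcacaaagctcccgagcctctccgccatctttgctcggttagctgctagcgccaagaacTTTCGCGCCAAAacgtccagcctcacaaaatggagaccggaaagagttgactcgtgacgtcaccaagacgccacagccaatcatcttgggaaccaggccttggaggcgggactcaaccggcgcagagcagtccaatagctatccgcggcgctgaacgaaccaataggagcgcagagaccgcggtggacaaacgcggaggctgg
Mcm6, chr1:128359656-128359955, minus strand: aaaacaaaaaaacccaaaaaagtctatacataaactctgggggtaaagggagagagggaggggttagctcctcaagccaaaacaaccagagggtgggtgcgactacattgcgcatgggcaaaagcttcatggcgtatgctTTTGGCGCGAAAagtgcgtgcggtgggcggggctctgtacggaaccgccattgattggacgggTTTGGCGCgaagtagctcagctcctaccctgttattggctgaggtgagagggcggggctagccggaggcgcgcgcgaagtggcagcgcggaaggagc
Rfc3, chr5:151651159-151651458, minus strand: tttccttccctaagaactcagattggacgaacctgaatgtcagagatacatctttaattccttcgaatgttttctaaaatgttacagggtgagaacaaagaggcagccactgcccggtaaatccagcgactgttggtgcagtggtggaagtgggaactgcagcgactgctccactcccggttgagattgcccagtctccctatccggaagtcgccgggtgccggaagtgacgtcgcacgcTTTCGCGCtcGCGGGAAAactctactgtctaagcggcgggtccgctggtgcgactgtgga
Pola1, chrX:93632106-93632405, minus strand: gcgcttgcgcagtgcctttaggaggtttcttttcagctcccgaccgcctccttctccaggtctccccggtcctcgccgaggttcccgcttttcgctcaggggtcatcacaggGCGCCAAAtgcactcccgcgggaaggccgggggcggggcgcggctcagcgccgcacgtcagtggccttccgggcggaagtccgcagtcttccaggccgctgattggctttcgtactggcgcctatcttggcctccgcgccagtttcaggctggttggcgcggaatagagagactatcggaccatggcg
Eme1, chr11:94653694-94653993, minus strand: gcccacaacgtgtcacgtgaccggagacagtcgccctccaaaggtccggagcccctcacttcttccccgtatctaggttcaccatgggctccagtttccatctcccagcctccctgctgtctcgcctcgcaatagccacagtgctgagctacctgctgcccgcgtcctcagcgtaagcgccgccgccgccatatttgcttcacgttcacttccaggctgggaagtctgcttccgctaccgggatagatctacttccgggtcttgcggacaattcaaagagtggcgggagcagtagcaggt
The Mcm5 promoter held 2 overlapping matches, and the Mcm6 promoter held 3, of which a pair overlapped.

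Libraries held 19731501 to 24398738 counts. Levels are given as CPM (counts scaled to a common library total) with TMM-scaled library sizes, and 3 counts correspond to 0.123 to 0.152 CPM. Nt5e, which encodes CD73, had 5.88, 14.5 and 6.43 CPM in KO_MCD libraries, against 177 and 87.6 CPM in WT_MCD libraries and 243 and 241 CPM in WT_NCD libraries. None of 14 Treg markers and none of 14 pan T cell markers was at 0 in any library, and Foxp3, the factor that defines Treg, had 108 to 286.5 CPM. Summed over the 14 pan T cell markers, levels were 7038 to 8527 CPM in KO_MCD libraries, 12070 and 5778 CPM in WT_MCD libraries and 10490 and 14970 CPM in WT_NCD libraries. The 14 macrophage and Kupffer cell markers summed to 7430 to 12740 CPM in KO_MCD libraries, 2432 and 32960 CPM in WT_MCD libraries and 10870 and 1193 CPM in WT_NCD libraries; Timd4 and Cd163 were at 0 in at least 1 library. Within each wild type group, the library with more macrophage marker RNA had less T cell marker RNA. In these bulk samples fewer cells of a type and less RNA per cell cannot be told apart.

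Summed over the 50 genes, KO_MCD libraries had 1593, 1613 and 2237 CPM, WT_MCD libraries had 2142 and 1979 CPM, and WT_NCD libraries had 2475 and 4077 CPM. Both WT_NCD libraries stood above all 5 libraries of the deficient diet, and the KO_MCD and WT_MCD libraries overlapped. WT_NCD replicate 2 was the highest library for 29 of the 50 genes and the lowest for 0, and it was above WT_NCD replicate 1 for 40 genes, with a median ratio of 1.34. KO_MCD replicate 2 was the lowest library for 16 genes. The genes spanned mean levels from 0.387 CPM for Fen1 to 312 CPM for Mcm6, and 30 of them averaged at least 20 CPM. On a scale of CPM per kb of exon, Gins4 (76.4), Mcm6 (67.0), Mcm3 (52.7) and Rpa2 (41.1) had the highest levels. Fen1 (0.160), Brca2 (0.5003) and Exo1 (0.774) had the lowest on the same scale. On the opposite strand, the exons of Fen1 overlap Tmem258 and Gm10143, and those of Brca2 overlap Gm42529. The strand setting of the counting is not given, and whether the overlaps lowered these counts was not tested.

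**Figure D1:**
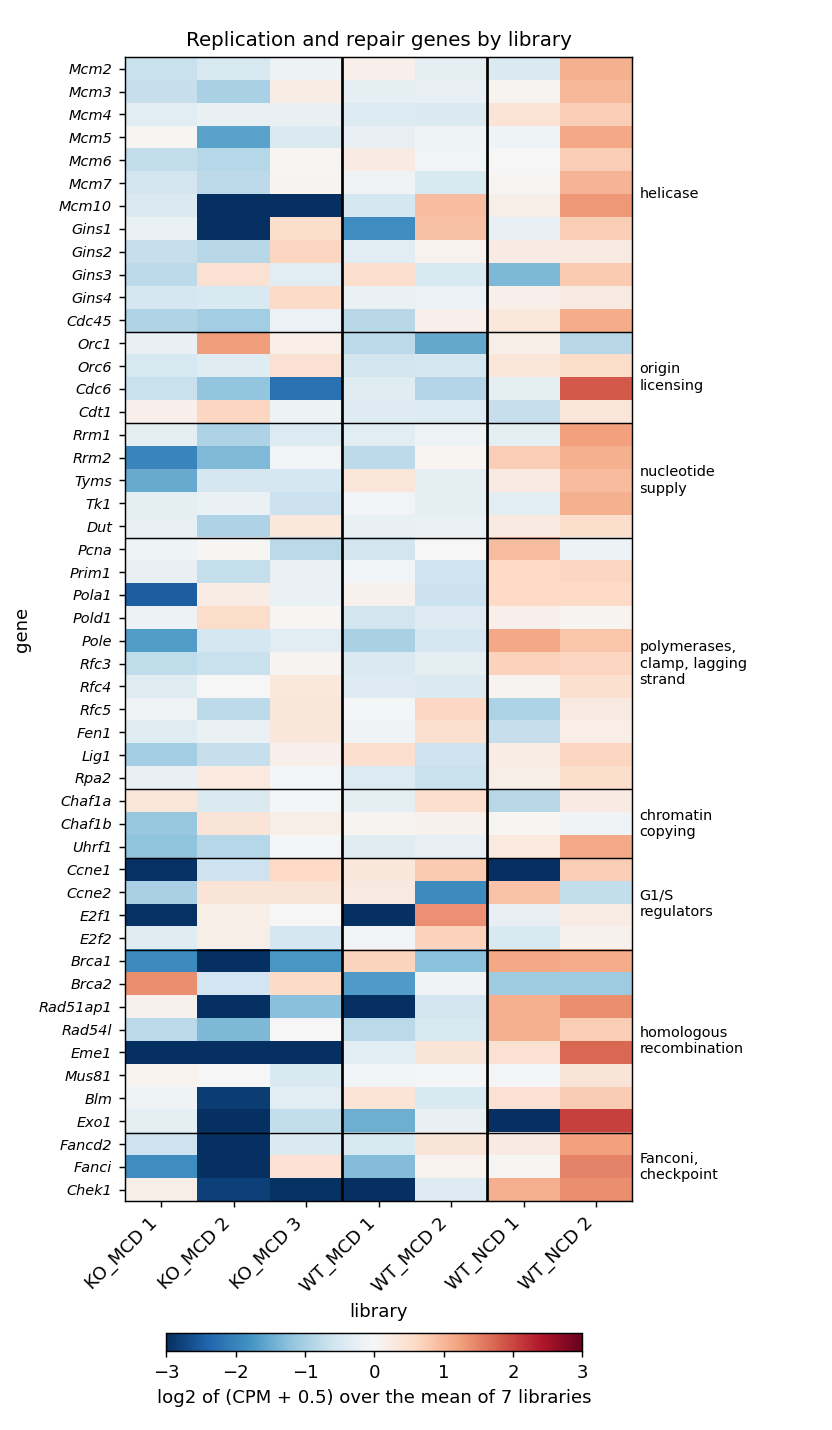
Level of each of the 50 genes (rows, grouped by role) in each of the 7 libraries (columns, KO_MCD, WT_MCD, WT_NCD), as the log2 ratio of CPM + 0.5 to the mean over all libraries of that gene; the colour scale ends at -3 and 3. Red cells are densest in WT_NCD replicate 2, the highest library for 29 genes, and KO_MCD replicate 2 holds 6 of the 14 zeros.

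In wild type mice the deficient diet went with lower levels of most of these genes. Of the 50, 41 were lower and 9 higher in WT_MCD than in WT_NCD, with a median log2 fold change of -0.75, against 0.0446 over all tested genes, of which 47.2% were lower and 52.3% higher. Both WT_MCD libraries lay below both WT_NCD libraries for 26 genes, against 14.8% of all tested genes, and above them for 1, Chaf1b, against 16.8%. No single gene passed: by edgeR with Benjamini-Hochberg adjustment 0 of the 50 and 0 of 14784 genes (0.00%) were called, and the smallest adjusted p among the 50 was 0.712, for Mcm4. An unadjusted edgeR p under 0.05 was reached by 4 of the 50, all lower, against 6.00% of all tested genes (2.04% lower, 3.96% higher). DESeq2 called 307 of all genes (2.08%) and 0 of the 50. Without WT_NCD replicate 2 the count of lower genes was 33, against 37.7% of all genes. The median log2 fold change was then -0.33, against 0.222 over all genes. The 1 gene higher without overlap became 11 without WT_NCD replicate 2 (34.9% of all genes) and 9 without WT_MCD replicate 1 (36.2%); it became 3 when scaled to T cell markers (27.1%) and 0 with total counts (17.0%).

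The 14 pan T cell markers were also lower in WT_MCD, 14 of 14, with a median log2 fold change of -0.557. Macrophage and Kupffer markers were higher for 11 of 14, and 10 of 10 natural killer and CD8 T cell markers were higher. The natural killer and CD8 markers summed to 178.0 and 429.5 CPM in WT_MCD libraries and to 78.06 and 69.96 CPM in WT_NCD libraries, and Ncr1, Klre1, Eomes and Cd8a were at 0 in at least 1 library. When the counts were scaled to the summed pan T cell markers, the median of all tested genes became 0.715 and that of the 50 became -0.0593. The 50 then lay 0.774 below the median of all genes, against 0.794 with TMM scaling. This distance can hardly change, since a scaling moves all genes of a library together. With TMM scaling 41 of the 50 were lower, against 47.2% of all genes, and with the T cell scaling 27, against 20.9%. With this scaling 4 of the 50 lay below WT_NCD without overlap, against 3.80% of all genes. The part that other cells have in these differences was not tested. As a share of the summed pan T cell CPM, the 50 genes made up 22.6%, 19.8% and 26.2% in KO_MCD libraries, 17.7% and 34.3% in WT_MCD libraries, and 23.6% and 27.2% in WT_NCD libraries. These shares overlapped between all 3 groups.

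Between genotypes on the deficient diet, the 50 genes were split in direction. Of the 50 genes, 36 were lower and 14 higher in KO_MCD than in WT_MCD, with a median log2 fold change of -0.213, against -0.0315 over all tested genes, of which 51.9% were lower and 47.9% higher. KO_MCD libraries lay below both WT_MCD libraries without overlap for 3 genes, Tyms, Brca1 and Eme1, against 9.66% of all tested genes. They lay above for 7, namely Mcm4, Orc1, Orc6, Cdt1, Pold1, Rfc4 and Rpa2, against 8.37%, and for 2 when scaled to T cell markers, against 7.60%. By edgeR with Benjamini-Hochberg adjustment 0 of the 50 and 0 of all genes (0.00%) were called, and all adjusted p were 1. Eme1 alone had an unadjusted edgeR p under 0.05, against 3.25% of all genes (2.04% lower, 1.20% higher), and DESeq2 called 42 genes (0.284%), with Eme1 among them. The 3 genes that lay below became 16 without WT_MCD replicate 1 (29.2% of all genes), 11 without WT_MCD replicate 2 (24.1%), 7 without KO_MCD replicate 1 (15.0%), 5 without KO_MCD replicate 2 (14.5%) and 20 without KO_MCD replicate 3 (18.6%). Without WT_MCD replicate 2 the count of lower genes was 26, against 42.1% of all genes. The count at an unadjusted p under 0.05 became 3 without WT_MCD replicate 2 or KO_MCD replicate 3, and 2 without KO_MCD replicate 1 or KO_MCD replicate 2.

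Beside these counts, 14 of 14 macrophage and Kupffer markers were lower in KO_MCD than in WT_MCD, with a median log2 fold change of -1.65. WT_MCD replicate 2 had the highest sum of these markers of all 7 libraries. Monocyte and neutrophil markers were lower for 10 of 10 and tested hepatocyte markers for 5 of 5. B and plasma cell markers were higher for 8 of 10 (median 1.67), although their sums, 1759 to 2971 CPM in KO_MCD libraries and 2456 and 2029 CPM in WT_MCD libraries, overlapped. Pax5 and Jchain, of the B and plasma cell markers, and all 10 listed hepatocyte markers were at 0 in at least 1 library. The part of these cells in the differences was not tested.

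KO_MCD and WT_NCD differ in both genotype and diet, which cannot be told apart, since the groups used here include no knockout on the control diet. Of the 50 genes, 43 were lower and 7 higher in KO_MCD than in WT_NCD, with a median log2 fold change of -0.898, against 0.0559 over all tested genes, of which 46.9% were lower and 52.8% higher. KO_MCD libraries lay below both WT_NCD libraries for 20 genes, against 12.8% of all genes, and above them for 1, Brca2, against 13.4%. By edgeR with Benjamini-Hochberg adjustment 0 of the 50 and 0 of all genes (0.00%) were called, and the smallest adjusted p among the 50 was 0.208, for Eme1. An unadjusted edgeR p under 0.05 was reached by 13 of the 50, all lower, against 8.97% of all tested genes (4.25% lower, 4.72% higher). DESeq2 called 552 genes (3.73%), of the 50 only Eme1. The 13 became 5 without WT_NCD replicate 2, 8 without KO_MCD replicate 1 and 7 without KO_MCD replicate 2, and the 20 became 37 without WT_NCD replicate 1 (28.0% of all genes). The 1 gene higher without overlap became 8 without WT_NCD replicate 2 (26.4% of all genes), 2 without WT_NCD replicate 1 (25.5%), 3 without KO_MCD replicate 1 (17.7%) and 8 when scaled to T cell markers (31.8%). With scaling to T cell markers the median log2 fold change was -0.187. It lay 0.901 below that of all genes, against 0.954 with TMM scaling, a distance that a scaling can hardly change. With the T cell scaling 12 of the 50 lay below without overlap, against 3.37% of all genes. Beside these counts, 14 of 14 pan T cell markers were lower in KO_MCD than in WT_NCD (median log2 fold change -0.729). All 10 natural killer and CD8 markers were higher without overlap (median 2.31), with sums of 242.8 to 258.3 CPM in KO_MCD libraries and 78.06 and 69.96 CPM in WT_NCD libraries. B and plasma cell markers were higher for 8 of 10 (median 2.75), and their part in the result was not tested. Each of the 3 comparisons shares a group with the others, so their values stand side by side and are not independent.

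**Figure D2:**
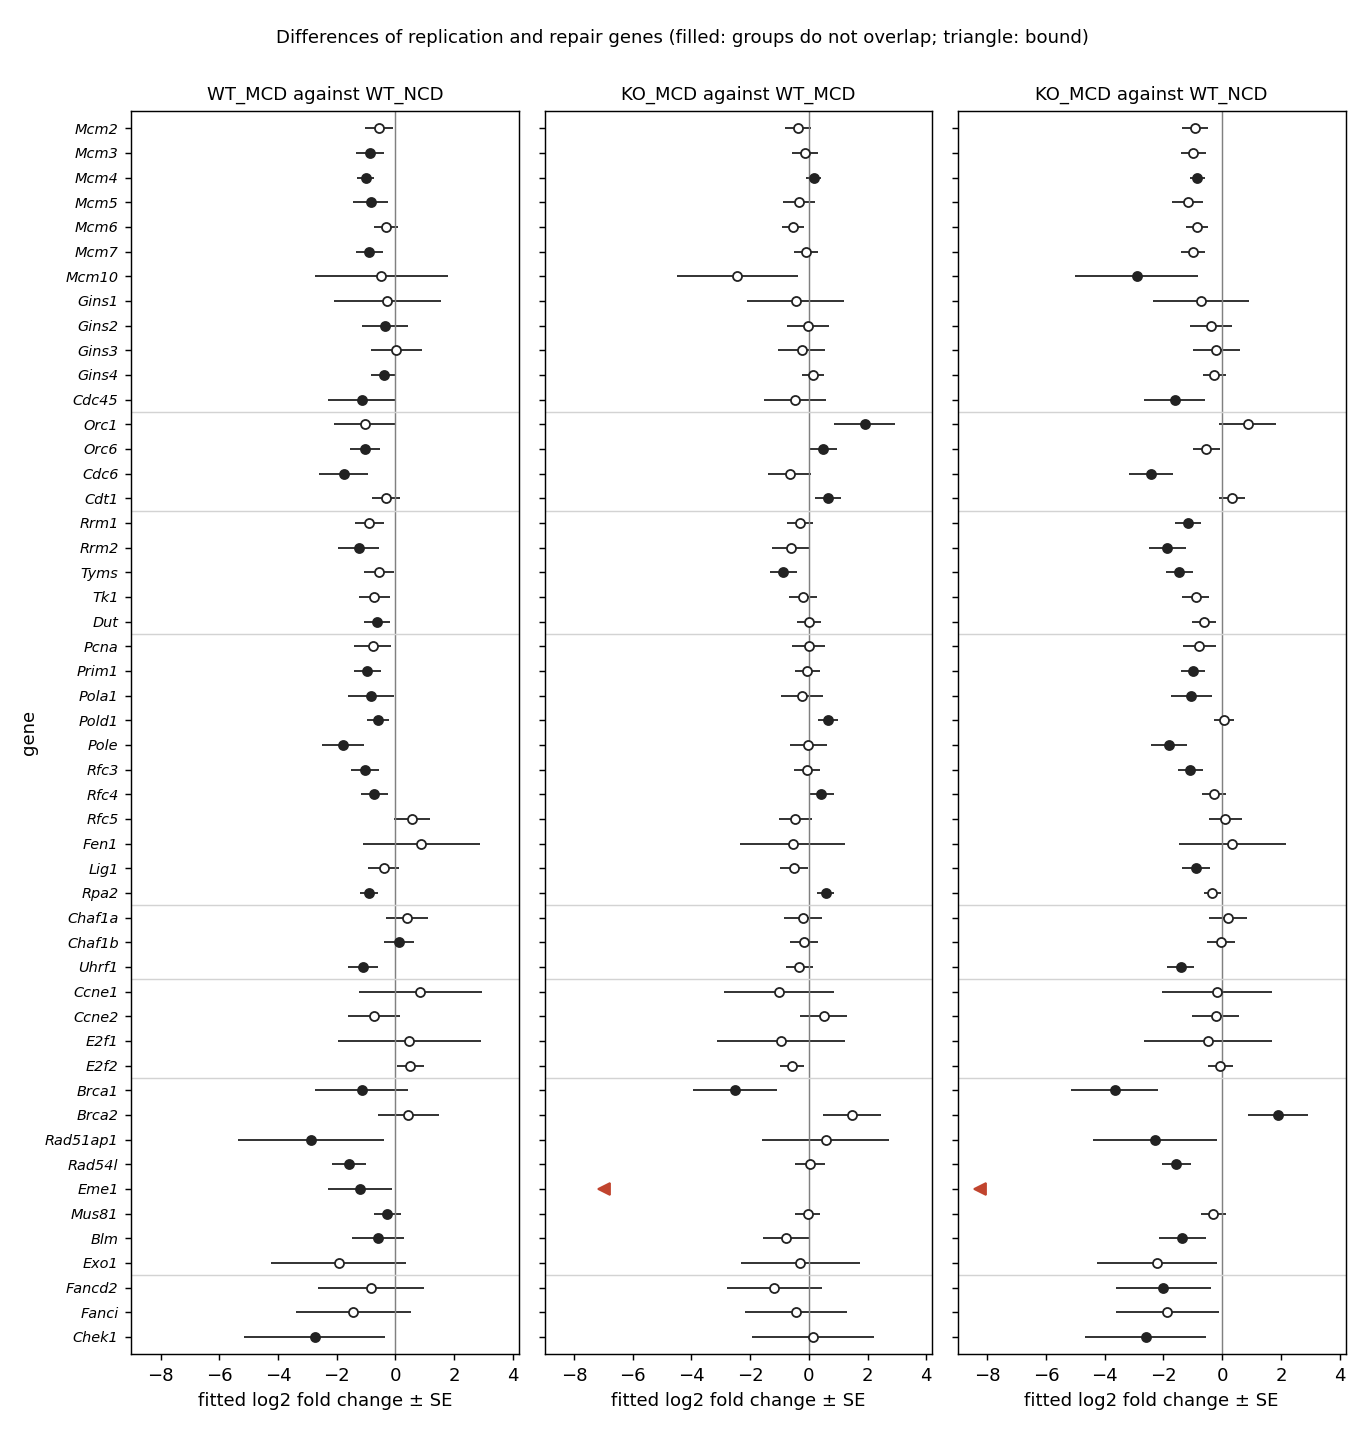
Fitted log2 fold change with its standard error (horizontal axes) for the 50 genes (rows, by role) in WT_MCD against WT_NCD, KO_MCD against WT_MCD and KO_MCD against WT_NCD. Filled points are genes whose groups do not overlap, and red triangles give the bound for Eme1, which had 0 counts in KO_MCD. The points lie mostly left of 0 in the first and last panels, where 41 and 43 of 50 genes were lower (47.2% and 46.9% of all tested genes). When scaled to T cell markers, 27 and 29 were lower (20.9% and 18.6% of all tested genes).

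The 12 helicase genes were lower in WT_MCD than in WT_NCD for 11 of 12, with a median log2 fold change of -0.523, and 5 of 12 were lower when scaled to T cell markers. That scaling raised the median of all tested genes to 0.715 and left 20.9% of them lower. Relative to that median, 11 of 12 helicase, 4 of 4 licensing and 5 of 5 nucleotide supply genes stood lower under it. So did 9 of 11 polymerase, 7 of 8 recombination and 3 of 3 Fanconi and checkpoint genes. Of the chromatin copying genes only 1 of 3 stood lower, and of the G1/S regulators 1 of 4. With TMM scaling 12 of 12 helicase genes stood below the median of all genes, and the counts of the other roles were the same. A scaling moves all genes of a library together, so a place relative to that median can hardly change. These counts therefore cannot decide on the part of T cell content, which was not tested. Against WT_MCD, KO_MCD was lower for 10 of 12 helicase genes, with a median of -0.291. Mcm4, a subunit of the MCM2-7 ring (GRCm38 chromosome 16, not overlapped by another gene's exons), had 67.1, 72.7 and 73.4 CPM in KO_MCD libraries, 64.01 and 62.6 CPM in WT_MCD libraries, and 113 and 143 CPM in WT_NCD libraries. The 3 groups did not overlap in Mcm4, and the spread within each was small. Its log2 fold change came to -1.02 (SE 0.29, edgeR adjusted p = 0.712) in WT_MCD against WT_NCD and -0.85 (SE 0.26, edgeR adjusted p = 0.451) in KO_MCD against WT_NCD. Mcm2, another subunit, had 97.8, 112 and 141 CPM in KO_MCD libraries, 173 and 128 CPM in WT_MCD libraries, and 116 and 328 CPM in WT_NCD libraries. Mcm2 overlapped between all groups, with 1 high WT_NCD library. Mcm5, whose promoter is printed above, had 108, 34.5 and 77.5 CPM in KO_MCD libraries, 89.5 and 96.03 CPM in WT_MCD libraries, and 96.9 and 235 CPM in WT_NCD libraries. WT_MCD lay just below WT_NCD in Mcm5, with a log2 fold change of -0.84 (SE 0.60, edgeR adjusted p = 0.849). Mcm6, the highest of the 50, had 186, 174 and 327 CPM in KO_MCD libraries, 373 and 294 CPM in WT_MCD libraries, and 312 and 520.5 CPM in WT_NCD libraries. All Mcm6 groups overlapped in part.

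Gins2, a GINS subunit, had 6.02, 5.39 and 15.9 CPM in KO_MCD libraries, 7.90 and 10.8 CPM in WT_MCD libraries, and 11.8 and 12.1 CPM in WT_NCD libraries. Gins2 was lower in WT_MCD than in WT_NCD by a log2 fold change of -0.36 (SE 0.79), which was 0.378 when scaled to T cell markers. Cdc45, which completes the active helicase, had 1.70, 1.495 and 3.14 CPM in KO_MCD libraries, 1.81 and 4.04 CPM in WT_MCD libraries, and 4.60 and 8.33 CPM in WT_NCD libraries. All 5 libraries of the deficient diet lay below both WT_NCD libraries in Cdc45, with log2 fold changes of -1.61 (SE 1.04) in KO_MCD against WT_NCD and -1.14 (SE 1.17) in WT_MCD against WT_NCD. The exons of Cdc45 and Gins2 overlap genes on the opposite strand, as do those of 19 of the 50 genes in all, and the sources used here do not give the strand setting of the counting. Mcm10, which helps to start the fork, was at 0 in KO_MCD replicates 2 and 3 and had 9.03 CPM in KO_MCD replicate 1.

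Origin licensing genes were lower in WT_MCD than in WT_NCD for 4 of 4 (median log2 fold change -1.03; 3 of 4 when scaled to T cell markers). They were higher in KO_MCD than in WT_MCD for 3 of 4, with a median of 0.572. Cdc6, which loads the MCM ring at the origin and whose promoter is printed above, had 13.4, 9.29 and 4.19 CPM in KO_MCD libraries, 16.7 and 11.5 CPM in WT_MCD libraries, and 17.8 and 78.3 CPM in WT_NCD libraries. Both groups of the deficient diet lay below WT_NCD in Cdc6, in which 1 library was 78.3 CPM and the other close to WT_MCD. Its log2 fold change came to -2.42 (SE 0.74, edgeR adjusted p = 0.449) in KO_MCD against WT_NCD and -1.77 (SE 0.83, edgeR adjusted p = 0.808) in WT_MCD against WT_NCD. Cdt1, the partner of Cdc6 in loading, had 45.7, 64.7 and 37.2 CPM in KO_MCD libraries, 31.6 and 30.6 CPM in WT_MCD libraries, and 25.3 and 53.1 CPM in WT_NCD libraries. KO_MCD lay above WT_MCD in Cdt1, with a log2 fold change of 0.66 (SE 0.45, edgeR adjusted p = 1). Orc1, the largest subunit of the origin recognition complex, had 4.42, 13.2 and 6.10 CPM in KO_MCD libraries, 2.74 and 1.47 CPM in WT_MCD libraries, and 5.97 and 2.71 CPM in WT_NCD libraries. KO_MCD lay above WT_MCD in Orc1 too, with a log2 fold change of 1.90 (SE 1.03, edgeR adjusted p = 1).

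Nucleotide supply genes were lower for 5 of 5 in WT_MCD than in WT_NCD (median log2 fold change -0.713; 2 of 5 when scaled to T cell markers) and for 4 of 5 in KO_MCD than in WT_MCD (median -0.294). Rrm1, the large subunit of ribonucleotide reductase, which makes deoxyribonucleotides, had 179, 115 and 164 CPM in KO_MCD libraries, 175 and 199.8 CPM in WT_MCD libraries, and 180.5 and 510.2 CPM in WT_NCD libraries. KO_MCD lay below WT_NCD in Rrm1 by a narrow margin, with a log2 fold change of -1.18 (SE 0.44, edgeR adjusted p = 0.525). Rrm2, the S phase subunit of the same enzyme, had 6.61, 10.8 and 26.0 CPM in KO_MCD libraries, 15.7 and 28.8 CPM in WT_MCD libraries, and 46.9 and 58.8 CPM in WT_NCD libraries. In Rrm2 all 5 libraries of the deficient diet lay below both WT_NCD libraries, with log2 fold changes of -1.87 (SE 0.62, edgeR adjusted p = 0.484) in KO_MCD against WT_NCD and -1.25 (SE 0.70, edgeR adjusted p = 0.812) in WT_MCD against WT_NCD. Tyms, which makes thymidylate, had 12.4, 25.1 and 24.8 CPM in KO_MCD libraries, 46.4 and 30.0 CPM in WT_MCD libraries, and 43.9 and 70.0 CPM in WT_NCD libraries. KO_MCD was lowest in Tyms without overlap with either wild type group, by log2 fold changes of -0.88 (SE 0.46, edgeR adjusted p = 1) against WT_MCD and -1.45 (SE 0.46, edgeR adjusted p = 0.463) against WT_NCD.

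Polymerase, clamp and lagging strand genes were lower for 9 of 11 in WT_MCD than in WT_NCD (median log2 fold change -0.769; 7 of 11 when scaled to T cell markers). Their median was -0.047 in KO_MCD against WT_MCD, where 8 of 11 were lower, a count that became 4 when only total counts were used for scaling. Rpa2, a subunit of the protein that coats single-stranded DNA, had 106, 150.1 and 121 CPM in KO_MCD libraries, 92.1 and 77.0 CPM in WT_MCD libraries, and 139 and 177 CPM in WT_NCD libraries. WT_MCD was the lowest group in Rpa2 and overlapped neither of the others. Its log2 fold changes were 0.57 (SE 0.29, edgeR adjusted p = 1) in KO_MCD against WT_MCD and -0.90 (SE 0.31, edgeR adjusted p = 0.779) in WT_MCD against WT_NCD. Pold1, the catalytic subunit of polymerase delta, had 46.5, 75.5 and 52.7 CPM in KO_MCD libraries, 35.2 and 39.0 CPM in WT_MCD libraries, and 57.2 and 54.5 CPM in WT_NCD libraries. WT_MCD was the lowest group in Pold1 as well, and its log2 fold change came to 0.65 (SE 0.34, edgeR adjusted p = 1) in KO_MCD against WT_MCD. Pole, the catalytic subunit of polymerase epsilon, had 3.69, 8.83 and 10 CPM in KO_MCD libraries, 6.32 and 8.87 CPM in WT_MCD libraries, and 29.2 and 23.1 CPM in WT_NCD libraries. Both groups of the deficient diet lay far below WT_NCD in Pole and overlapped each other, and the log2 fold change came to -1.78 (SE 0.70, edgeR adjusted p = 0.803) in WT_MCD against WT_NCD.

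In Rfc3, a subunit of the clamp loader whose promoter is printed above, both groups of the deficient diet also lay below WT_NCD. It had 13.4, 14.2 and 24.4 CPM in KO_MCD libraries, 16.8 and 19.1 CPM in WT_MCD libraries, and 37.3 and 36.0 CPM in WT_NCD libraries, with a log2 fold change of -1.03 (SE 0.49, edgeR adjusted p = 0.808) in WT_MCD against WT_NCD. Pola1, the catalytic subunit of polymerase alpha, had 7.87, 54.0 and 40.3 CPM in KO_MCD libraries, 50.6 and 29.5 CPM in WT_MCD libraries, and 70.8 and 70.5 CPM in WT_NCD libraries. Both WT_NCD libraries were above all others in Pola1, and the KO_MCD libraries were spread widely. Its log2 fold changes were -1.05 (SE 0.70) in KO_MCD against WT_NCD and -0.82 (SE 0.78) in WT_MCD against WT_NCD. Pcna, the sliding clamp, had 14.6, 16.6 and 8.91 CPM in KO_MCD libraries, 10.8 and 16.1 CPM in WT_MCD libraries, and 31.2 and 14.6 CPM in WT_NCD libraries, so that all groups overlapped. Lig1, the ligase that seals the lagging strand, had 47.5, 60.9 and 110.1 CPM in KO_MCD libraries, 141 and 64.1 CPM in WT_MCD libraries, and 115 and 155 CPM in WT_NCD libraries. KO_MCD lay below WT_NCD in Lig1, with a log2 fold change of -0.89 (SE 0.47, edgeR adjusted p = 0.599). Fen1, the flap nuclease of the lagging strand, had 4, 6 and 13 counts in KO_MCD libraries, 7 and 14 counts in WT_MCD libraries, and 1 and 12 counts in WT_NCD libraries, too few to compare groups.

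Of the 3 genes that copy chromatin, Uhrf1, which carries DNA methylation to the new strand, had 17.4, 22.6 and 39.8 CPM in KO_MCD libraries, 31.9 and 34.5 CPM in WT_MCD libraries, and 50.5 and 91.3 CPM in WT_NCD libraries. All libraries of the deficient diet lay below WT_NCD in Uhrf1. Its log2 fold change came to -1.41 (SE 0.46, edgeR adjusted p = 0.477) in KO_MCD against WT_NCD and -1.09 (SE 0.52, edgeR adjusted p = 0.808) in WT_MCD against WT_NCD. Chaf1b, a subunit of the complex that deposits histones behind the fork, had 21.3, 62.9 and 53.9 CPM in KO_MCD libraries, 50.3 and 52.1 CPM in WT_MCD libraries, and 49.9 and 44.1 CPM in WT_NCD libraries. It was the 1 gene of the 50 that was higher in WT_MCD than in WT_NCD without overlap, and the margin was small, with a log2 fold change of 0.12 (SE 0.52).

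Of the 4 G1/S regulators, 1 was lower in WT_MCD than in WT_NCD and 3 were lower in KO_MCD than in WT_MCD, and their libraries were spread widely within groups. Ccne1, a cyclin that starts S phase, had 0.631, 5.25 and 12.8 CPM in KO_MCD libraries, 10.6 and 14.7 CPM in WT_MCD libraries, and 0 and 14.1 CPM in WT_NCD libraries. Ccne2, its relative, had 16.9, 44.4 and 44.2 CPM in KO_MCD libraries, 40.9 and 8.61 CPM in WT_MCD libraries, and 62.1 and 20.1 CPM in WT_NCD libraries. Both cyclins overlapped between all groups. E2f1, an activator of S phase genes, had 0.0486, 4.39 and 3.81 CPM in KO_MCD libraries, 0 and 10.7 CPM in WT_MCD libraries, and 3.14 and 4.55 CPM in WT_NCD libraries. E2f2, a related activator with a higher level, had 31.8, 46.9 and 29.1 CPM in KO_MCD libraries, 39.1 and 67.0 CPM in WT_MCD libraries, and 29.9 and 45.01 CPM in WT_NCD libraries. Neither E2f gene separated any pair of groups.

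Recombination genes were lower for 7 of 8 in WT_MCD than in WT_NCD (median log2 fold change -1.18; 6 of 8 when scaled to T cell markers) and lay below WT_NCD without overlap for 6, against 14.8% of all tested genes. Eme1, which with Mus81 forms a nuclease that cuts branched DNA (GRCm38 chr11:94644996-94653964, minus strand), had 0, 0 and 0 counts in KO_MCD libraries, 95 and 146 counts in WT_MCD libraries, and 158 and 462 counts in WT_NCD libraries. No knockout library gave a count of Eme1, and every wild type library did. Against a floor of 3 counts over the KO_MCD group, Eme1 was at least 126-fold lower in KO_MCD than in WT_MCD and at least 306-fold lower than in WT_NCD. The adjusted p by edgeR was 1 against WT_MCD and 0.208 against WT_NCD. DESeq2 called Eme1 in both, with adjusted p = 2.14e-05 against WT_MCD and 4.58e-08 against WT_NCD. Over the alternatives tried, the adjusted p of Eme1 ran up to 1 against WT_MCD and up to 0.798 against WT_NCD. Eme1 was the only one of the 50 at 0 in every library of a group, and 9 others had 11 zeros between them. The exons of Eme1 overlap Lrrc59 and Mrpl27 on the opposite strand. Mus81, the partner of Eme1, had 21.6, 20.1 and 14.5 CPM in KO_MCD libraries, 19.1 and 19.2 CPM in WT_MCD libraries, and 19.7 and 26.6 CPM in WT_NCD libraries. WT_MCD lay just below WT_NCD in Mus81, with a log2 fold change of -0.28 (SE 0.47) that was 0.422 when scaled to T cell markers.

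Brca1, which directs broken ends to recombination, had 4.37, 0 and 4.95 CPM in KO_MCD libraries, 28.3 and 7.25 CPM in WT_MCD libraries, and 40.2 and 38.6 CPM in WT_NCD libraries. The 3 groups did not overlap in Brca1, and KO_MCD was lowest. Its log2 fold changes were -2.52 (SE 1.43, edgeR adjusted p = 1) in KO_MCD against WT_MCD, -1.15 (SE 1.58, edgeR adjusted p = 0.993) in WT_MCD against WT_NCD and -3.66 (SE 1.48, edgeR adjusted p = 0.544) in KO_MCD against WT_NCD. Brca2, which acts in the same repair pathway as Brca1, had 18.9, 4.39 and 10.4 CPM in KO_MCD libraries, 1.77 and 6.35 CPM in WT_MCD libraries, and 2.98 and 3.01 CPM in WT_NCD libraries. WT_MCD overlapped both other groups in Brca2. Brca2 was higher in KO_MCD than in WT_NCD without overlap, with a log2 fold change of 1.90 (SE 1.02, edgeR adjusted p = 0.601). Rad54l, a motor protein of recombination, had 12.7, 8.47 and 22.4 CPM in KO_MCD libraries, 12.6 and 15.9 CPM in WT_MCD libraries, and 47.5 and 37.9 CPM in WT_NCD libraries. Both groups of the deficient diet lay below WT_NCD in Rad54l, and the log2 fold change came to -1.58 (SE 0.58, edgeR adjusted p = 0.793) in WT_MCD against WT_NCD. Rad51ap1, another recombination gene, had 13.8, 0 and 5.002 CPM in KO_MCD libraries, 0 and 8.45 CPM in WT_MCD libraries, and 27.4 and 34.3 CPM in WT_NCD libraries. Rad51ap1 had the same separation, with log2 fold changes of -2.30 (SE 2.11) in KO_MCD against WT_NCD and -2.87 (SE 2.49) in WT_MCD against WT_NCD. Exo1, which trims broken ends, had 5.25, 0.317 and 3.72 CPM in KO_MCD libraries, 2.04 and 5.51 CPM in WT_MCD libraries, and 0 and 28.8 CPM in WT_NCD libraries, and overlapped between all groups.

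Fancd2, which marks crosslinked forks for repair, had 4.23, 0 and 4.91 CPM in KO_MCD libraries, 4.79 and 8.98 CPM in WT_MCD libraries, and 8.09 and 16.4 CPM in WT_NCD libraries. KO_MCD lay below WT_NCD in Fancd2, with a log2 fold change of -2.01 (SE 1.62, edgeR adjusted p = 0.766). Chek1, the kinase of the replication checkpoint, had 5.54, 0.272 and 0.191 CPM in KO_MCD libraries, 0 and 3.62 CPM in WT_MCD libraries, and 10.8 and 13.6 CPM in WT_NCD libraries. All 5 libraries of the deficient diet lay below both WT_NCD libraries in Chek1. Its log2 fold changes were -2.61 (SE 2.06) in KO_MCD against WT_NCD and -2.75 (SE 2.40) in WT_MCD against WT_NCD.

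**Figure D3:**
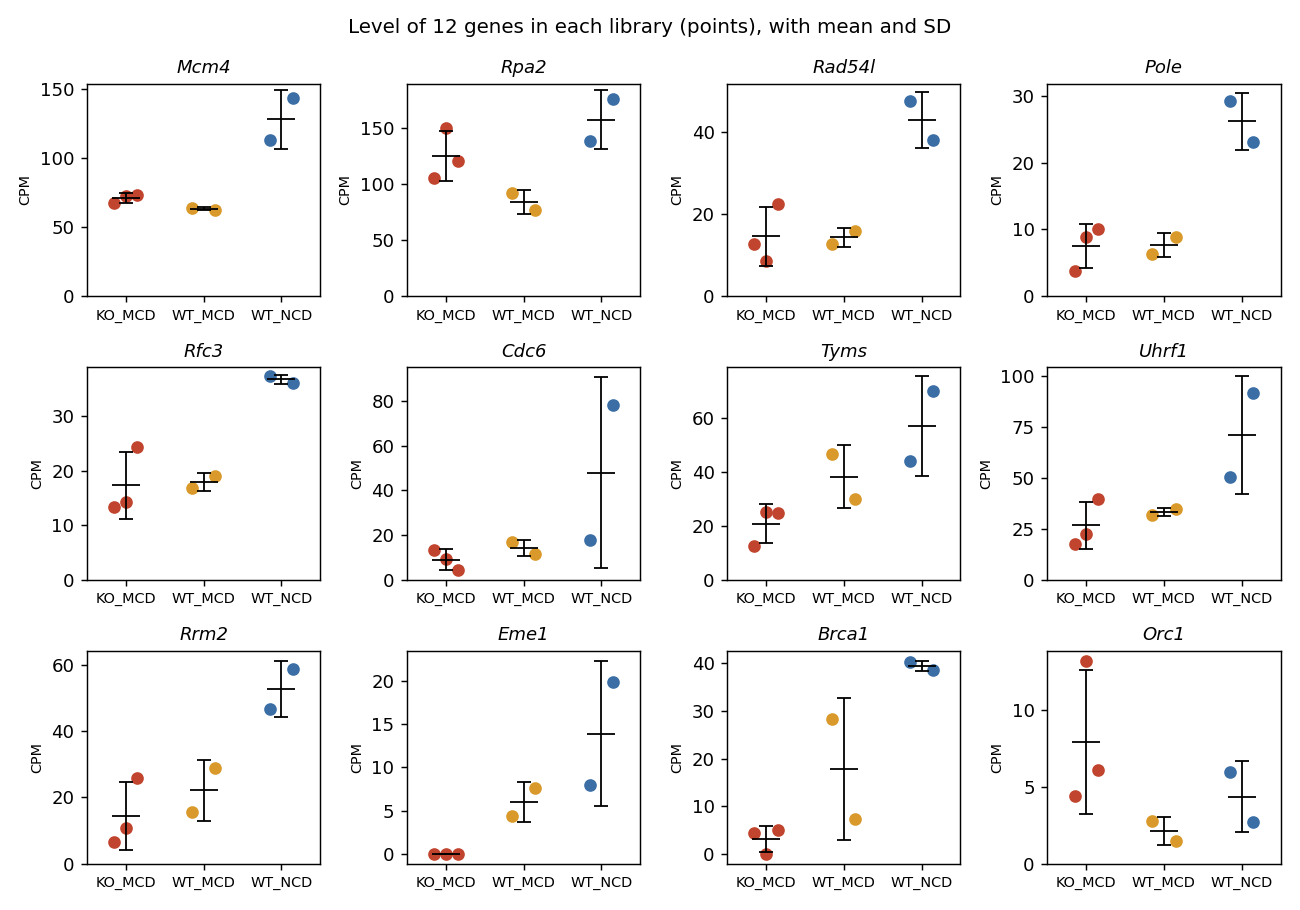
CPM of single genes of the 50 in each library (points) with the group mean and SD (lines), for KO_MCD, WT_MCD and WT_NCD from left to right; each panel has its own linear axis. Eme1 is at 0 in all 3 KO_MCD libraries, and Mcm4 lies between 62.6 and 73.4 CPM in the 5 libraries of the deficient diet, below 113 and 143 CPM in WT_NCD.

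Other genes of the same pathways were counted from lists beside the 50. Of 38 other replication genes tested, 27 were lower in WT_MCD than in WT_NCD (median log2 fold change -0.312) and 16 were lower in KO_MCD than in WT_MCD (median 0.077), and 0 passed the edgeR test after adjustment in either direction. In WT_MCD against WT_NCD, an unadjusted edgeR p under 0.05 was reached by 2 lower (5.26%) and 0 higher genes. Of all tested genes, 2.04% were lower and 3.96% higher at that threshold. In KO_MCD against WT_MCD, 1 lower (2.63%) and 2 higher genes reached it, against 2.04% and 1.20% of all tested genes. Dnmt1, which copies DNA methylation onto the new strand, had 146, 159 and 122 CPM in KO_MCD libraries, 110.5 and 88.9 CPM in WT_MCD libraries, and 183 and 308 CPM in WT_NCD libraries. WT_MCD was the lowest group without overlap in Dnmt1, with a log2 fold change of -1.30 (SE 0.35, edgeR adjusted p = 0.705) against WT_NCD. Orc2, an origin recognition subunit, had 53.4, 82.6 and 73.0 CPM in KO_MCD libraries, 29.5 and 36.9 CPM in WT_MCD libraries, and 34.6 and 51.3 CPM in WT_NCD libraries. KO_MCD was the highest group in Orc2, with a log2 fold change of 1.07 (SE 0.37, edgeR adjusted p = 1) against WT_MCD. Mcmbp, which binds MCM subunits, had 28.1, 29.4 and 27.0 CPM in KO_MCD libraries, 54.2 and 51.1 CPM in WT_MCD libraries, and 32.8 and 44.0 CPM in WT_NCD libraries. KO_MCD was the lowest group in Mcmbp without overlap, with a log2 fold change of -0.90 (SE 0.32, edgeR adjusted p = 1) against WT_MCD. Asf1b, a histone chaperone, had 16.1, 8.29 and 25.1 CPM in KO_MCD libraries, 31.9 and 39.7 CPM in WT_MCD libraries, and 85.9 and 75.6 CPM in WT_NCD libraries. The 3 groups did not overlap in Asf1b, with a log2 fold change of -2.29 (SE 0.48, edgeR adjusted p = 0.321) in KO_MCD against WT_NCD. Of 37 other recombination and Fanconi genes, 30 were lower in WT_MCD than in WT_NCD (median -0.636) and 15 were lower in KO_MCD than in WT_MCD (median 0.089). Gen1, a nuclease that cuts the same kind of branched DNA as Mus81 and Eme1, had 13.4, 20.1 and 9.67 CPM in KO_MCD libraries, 4.51 and 5.46 CPM in WT_MCD libraries, and 19.0 and 20.4 CPM in WT_NCD libraries. Gen1 was lowest in WT_MCD without overlap, with log2 fold changes of 1.53 (SE 0.58, edgeR adjusted p = 1) in KO_MCD against WT_MCD and -1.98 (SE 0.63, edgeR adjusted p = 0.750) in WT_MCD against WT_NCD.

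Of 19 other nucleotide supply genes, 12 were lower in WT_MCD than in WT_NCD (median log2 fold change -0.0506) and 6 were lower in KO_MCD than in WT_MCD (median 0.107). Samhd1, which breaks down deoxyribonucleotides, had 691, 767 and 599 CPM in KO_MCD libraries, 998 and 961 CPM in WT_MCD libraries, and 1531 and 1203 CPM in WT_NCD libraries. The 3 groups did not overlap in Samhd1. Its log2 fold changes were -0.51 (SE 0.24, edgeR adjusted p = 1) in KO_MCD against WT_MCD, -0.48 (SE 0.27, edgeR adjusted p = 0.812) in WT_MCD against WT_NCD, which was 0.139 when scaled to T cell markers, and -0.995 (SE 0.24, edgeR adjusted p = 0.335) in KO_MCD against WT_NCD. Of 38 other G1/S and checkpoint genes, 21 were lower in WT_MCD than in WT_NCD and 22 were lower in KO_MCD than in WT_MCD. Of 10 end joining genes, 7 were lower in WT_MCD than in WT_NCD and 3 in KO_MCD than in WT_MCD. By edgeR 0 of the genes of these lists passed after adjustment. Of the 142 tested genes of the pathway lists without mitosis, DESeq2 called Dnmt1 in WT_MCD against WT_NCD. In KO_MCD against WT_NCD it called Rpa1, Asf1b and Samhd1, and all these genes were lower. Of all tested genes it called 2.08% and 3.73% in these comparisons, so the calls in the lists were not more frequent. Without the low-count filter edgeR called 140 of 21106 genes with a count in KO_MCD against WT_NCD, and of these lists only Asf1b.

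Genes of mitosis, the division that follows replication, were lower as well. All 21 mitosis genes were lower in WT_MCD than in WT_NCD, with a median log2 fold change of -1.49, and 20 of 21 were lower when scaled to T cell markers. In KO_MCD against WT_MCD 20 of 21 were lower, with a median of -0.89, and in KO_MCD against WT_NCD all 21 were, with a median of -2.46. An unadjusted edgeR p under 0.05 was reached by 10 of the 21 in WT_MCD against WT_NCD, 3 in KO_MCD against WT_MCD and 17 in KO_MCD against WT_NCD, all lower, against 2.04%, 2.04% and 4.25% of all tested genes. By edgeR 0 passed after adjustment. DESeq2 called 5 of the 21 in WT_MCD against WT_NCD, 0 in KO_MCD against WT_MCD and 14 in KO_MCD against WT_NCD. Of all tested genes it called 2.08%, 0.284% and 3.73%. Without the low-count filter edgeR called 1, 0 and 11 of the 21, against 54, 1 and 140 of all 21106 genes with a count. Summed mitosis levels were 913, 959 and 998 CPM in KO_MCD libraries, 1145 and 1039 CPM in WT_MCD libraries, and 3021 and 3291 CPM in WT_NCD libraries. The 3 groups did not overlap in this sum, whereas KO_MCD and WT_MCD overlapped in the sum of the 50 replication and repair genes. The difference between the 2 lists was not tested. As a share of the summed pan T cell CPM, mitosis genes made up 12.98%, 11.8% and 11.7% in KO_MCD libraries, 9.48% and 18.0% in WT_MCD libraries, and 28.8% and 22.0% in WT_NCD libraries, which stayed above all 5 libraries of the deficient diet. Top2a, which untangles copied chromosomes, had 48.0, 47.5 and 80.2 CPM in KO_MCD libraries, 90.5 and 76.8 CPM in WT_MCD libraries, and 241 and 451 CPM in WT_NCD libraries. Its log2 fold changes were -2.56 (SE 0.38, edgeR adjusted p = 0.203) in KO_MCD against WT_NCD and -2.05 (SE 0.44, edgeR adjusted p = 0.548) in WT_MCD against WT_NCD. DESeq2 called Top2a in both, and edgeR without the low-count filter called it in KO_MCD against WT_NCD.

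**Figure D4:**
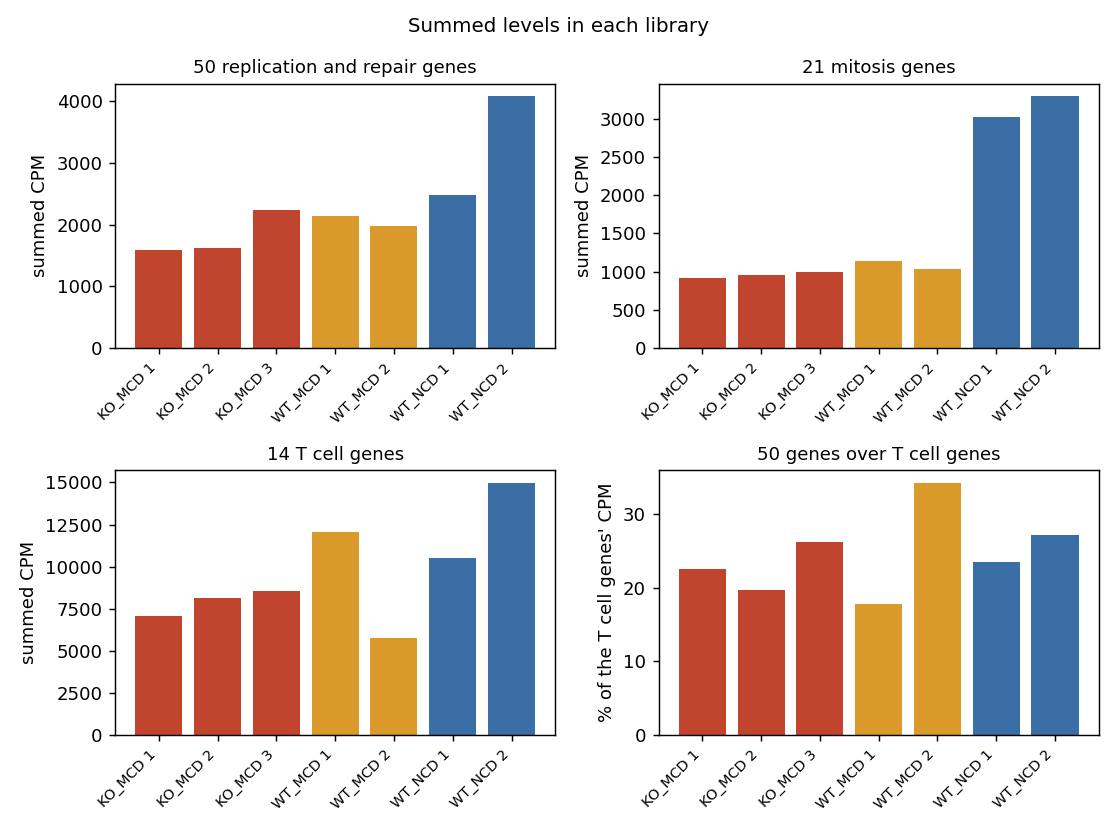
Summed CPM per library (bars) for the 50 replication and repair genes, the 21 mitosis genes and the 14 pan T cell markers, and the 50 genes as a percentage of the pan T cell CPM, with KO_MCD, WT_MCD and WT_NCD libraries from left to right. The mitosis sums are 913 to 998, 1039 to 1145 and 3021 to 3291 CPM in the 3 groups, while the sums of the 50 genes overlap between KO_MCD and WT_MCD.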

How the data were processed

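RNA-seq of CD4+CD25+ liver cells was deposited by the authors as raw counts per Ensembl gene, 1 column for each of 7 libraries. The submitters' processing notes name HISAT2 2.1.0 and the build GRCm38; how reads were counted, and whether by strand, is not given in the sources here. Columns were matched to samples by title. Names, positions and exon lengths came from GENCODE M21, which named 53274 of 53465 identifiers.

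The quasi-likelihood test of edgeR 4.0.16 (glmQLFit, glmQLFTest; R 4.3.3) was run on the deposited counts of all 7 libraries, with 1 coefficient for each group, TMM scaling, genes kept by filterByExpr at a minimum count of 10, Benjamini-Hochberg adjustment over all 14784 tested genes and a threshold of 0.05. Standard errors were derived from the fold change and the F statistic. The procedure was tested on simulated data. A gene with no count in a group was compared with a floor of 3 counts summed over that group, which covers counting error only. DESeq2 1.42.0 and limma 3.58.1 (voom) were alternatives, with other scalings, filters, a replicate block and each library left out.

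The members, roles and gene lists were chosen with earlier results of these data known. Genes named with values were a set spread over the roles, the 5 members with the smallest p per comparison, and, from a pathway list, genes among the 2 with the smallest p per comparison and a mean of at least 5 CPM. A pathway gene that this rule names is not reported here. Fold changes were given for role members only where groups did not overlap. Replicate numbers are shared between groups in the labels, which state no pairing, so the numbers were not taken to pair libraries. Deviations of same-numbered libraries correlated from -0.102 to 0.03. In a group of 2 libraries the deviations are mirror images, so crossed numbers give the same size with the opposite sign. These correlations therefore cannot decide on pairing.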

Additional observations from a re-analysis of the deposited data

How the results depend on the processing

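No gene among the 50 passed an adjusted p of 0.05 in any edgeR fit with the low-count filter, and leaving out any library left 0 genes called. Without the low-count filter, edgeR tested the 21106 genes with a count. Of these, 54 were called in WT_MCD against WT_NCD, 1 in KO_MCD against WT_MCD and 140 in KO_MCD against WT_NCD. Of the 50, only Eme1 (1) was among the 140. In that fit 2 of the 50 had an unadjusted p under 0.05 in KO_MCD against WT_MCD. DESeq2 called 307, 42 and 552 genes, and 1 of the 50, Eme1, in each knockout comparison. With limma voom 2 and 20 of the 50 had an unadjusted p under 0.05 in KO_MCD against WT_MCD and WT_NCD, where edgeR gave 1 and 13. The share of all tested genes at that threshold is given here for the main edgeR fit only. Counts of the 50 at an unadjusted p under other tools, scalings, left-out libraries or blocks therefore have no background beside them. They cannot be read as stronger or weaker results for the 50. Scaled to T cell markers, WT_MCD against WT_NCD had 27 of the 50 lower (20.9% of all genes), a median of -0.0593 and 0 at an unadjusted p under 0.05. It had 4 lower without overlap (3.80% of all genes), and Gins2 (0.378), Mus81 (0.422) and Samhd1 (0.139) reversed. The same scaling gave KO_MCD against WT_NCD a median of -0.187, 1 gene at an unadjusted p under 0.05 and 12 lower without overlap (3.37% of all genes). It raised the median of all genes to 0.715 and 0.714 in these comparisons, so its own construction moves every gene.

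With 1 library left out at a time, WT_MCD against WT_NCD had 2 to 9 of the 50 at an unadjusted p under 0.05, 33 to 43 lower, a median of -0.931 to -0.333 and 29 to 38 lower without overlap (26.8% to 33.4% of all genes). KO_MCD against WT_MCD had 1 to 3, 26 to 37 lower, a median of -0.378 to -0.0524 and 5 to 20 lower without overlap (14.5% to 29.2%). KO_MCD against WT_NCD had 5 to 15, 38 to 45 lower, a median of -1.2 to -0.445 and 21 to 37 lower without overlap (16.8% to 28.0%). Of all genes, 37.7% to 50.5% were lower in these fits in WT_MCD against WT_NCD. The shares were 42.1% to 53.5% in KO_MCD against WT_MCD and 39.7% to 48.8% in KO_MCD against WT_NCD. A group with 1 library left is assumed to vary like the others, and fewer libraries make groups overlap less by construction.

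Replicate numbers are shared between groups, but the labels state no pairing, and whether the numbers pair the libraries could not be decided. With the replicate block, 2 of the 50 had an unadjusted p under 0.05 in KO_MCD against WT_MCD, and the medians were -0.808, -0.397 and -1.12 in WT_MCD against WT_NCD, KO_MCD against WT_MCD and KO_MCD against WT_NCD. In the wild type groups alone, 1 of the 50 had an unadjusted p under 0.05 with the block and 2 with crossed numbers, and 0 genes were called. The fits on the wild type groups alone and the counts without overlap under other settings were chosen after seeing the data. The cause of these changes was not tested unless stated. Groups of 2 or 3 libraries and a variation of 91.27% between libraries of a group limit what single genes can show.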

Other observations

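Genes of the checkpoint and end joining lists gave values that belong to no role above. Those printed here were higher, which does not describe their lists. In WT_MCD against WT_NCD 21 of 38 checkpoint and 7 of 10 end joining genes were lower, against 47.2% of all tested genes. An unadjusted edgeR p under 0.05 was reached there by 2 lower and 1 higher checkpoint genes. Of the end joining genes, 1 lower and 1 higher reached it, against 2.04% lower and 3.96% higher of all tested genes. Myc, a growth factor-induced transcription factor, had 419, 387 and 273 CPM in KO_MCD libraries, 195 and 148 CPM in WT_MCD libraries, and 200.4 and 144 CPM in WT_NCD libraries. KO_MCD was the highest group in Myc without overlap, with log2 fold changes of 1.07 (SE 0.32, edgeR adjusted p = 1) against WT_MCD and 1.06 (SE 0.32, edgeR adjusted p = 0.434) against WT_NCD. Ccnd2, a cyclin of G1, had 419, 434 and 634 CPM in KO_MCD libraries, 746 and 415 CPM in WT_MCD libraries, and 153 and 292 CPM in WT_NCD libraries. Both groups of the deficient diet lay above WT_NCD in Ccnd2, and the log2 fold change came to 1.38 (SE 0.45, edgeR adjusted p = 0.772) in WT_MCD against WT_NCD. Mad2l2, which steers breaks to end joining, had 15.6, 31.8 and 22.9 CPM in KO_MCD libraries, 24.2 and 26.0 CPM in WT_MCD libraries, and 11.4 and 10.4 CPM in WT_NCD libraries. It was also higher in both groups of the deficient diet, with log2 fold changes of 1.10 (SE 0.47, edgeR adjusted p = 0.557) in KO_MCD against WT_NCD and 1.20 (SE 0.51, edgeR adjusted p = 0.808) in WT_MCD against WT_NCD.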
